A study of Mus musculus with 2 samples.

Results

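The p53 gene *Trp53*, 6 genes that p53 induces (*Mdm2*, *Cdkn1a*, *Ccng1*, *Bax*, *Zmat3* and *Phlda3*) and the CDK inhibitor genes *Cdkn1b* and *Cdkn2a* were followed in single cells; *Cdkn1a* belongs to both groups. They were taken by name, not by a cut on their values, though with earlier results of these data known. They are 9 of the 31053 genes counted in both matrices. The data are 2 libraries of E14 mouse embryonic stem cells (mESCs) made with the Chromium 3′ v3 kit, which counts 1 unique molecular identifier (UMI) per captured mRNA molecule. One library came from the parental cells (WT). The other came from cells in which *Smad1* and *Smad5*, the transcription factors that carry BMP signals, were targeted with CRISPR-Cas9 (S1/5 dKO). Both cultures were grown without feeders on gelatin in medium with FBS and LIF, and no source names the S1/5 dKO line that was sequenced.

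The p53 protein is a transcription factor that is held at a low level by constant degradation and accumulates when DNA is damaged or the cell is stressed. It then binds response elements near its target genes, whose products stop the cell cycle, favour apoptosis or, through MDM2, remove p53 again. CDK inhibitors bind cyclin-dependent kinases and slow the passage through the cell cycle, and mESCs are known for a short G1 phase and for low levels of these inhibitors.

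Barcodes counted as cells where they held 1000 or more genes and no more than 5% of their UMIs were mitochondrial, which gave 2236 WT cells with a median of 38662 UMIs and 2910 cells of the library labelled S1/5 dKO with a median of 34548.5. The libraries shared 0 cell barcodes. *Smad1* mRNA was lower in the latter, at 9.17 UMIs per 1000000 UMIs in cells (CPM) against 13.4 in WT. *Smad5* mRNA was higher there, at 9.09 against 6.05. The mRNA counts of a gene need not fall after it is edited, so the knockout was not tested by these levels. The paper reports lower mRNA of BMP-SMAD target genes in the knockout cells, which it takes as showing the effects of the knockout. The library is called the dKO-labelled library, after its label. With 1 library per condition no test between the conditions could be run. All intervals are exact 95% intervals that cover counting error only and say nothing of the spread between cultures.

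The RefSeq promoter table for GRCm38.p6 held 10 start sites of 8 of the genes. The p53 response element was searched by its name, as 20 bases in 1 run with no spacer, with at most 2 mismatches and with the C and the G of the CNNG in each 10-base part required. The element reads alike on both strands, so 1 scan covered both. It was found before 2 of the 10 starts, those of *Cdkn1a* and *Ccng1*, each with 1 mismatch. Of all 32851 windows of 300 bases in the table, 107 (0.326%) held such a match, and 22 (0.067%) held one with at most 1 mismatch. Both stretches are shown because they carry the element that p53 binds, with the element in capitals and cut where the annotated gene begins.
*Cdkn1a*, chr17:29090729-29090975, + strand: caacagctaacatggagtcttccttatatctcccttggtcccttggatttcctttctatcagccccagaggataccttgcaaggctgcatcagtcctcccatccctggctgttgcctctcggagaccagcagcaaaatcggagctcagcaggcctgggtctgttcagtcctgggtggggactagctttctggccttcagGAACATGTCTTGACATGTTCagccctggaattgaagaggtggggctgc
*Ccng1*, chr11:40755312-40755536, − strand: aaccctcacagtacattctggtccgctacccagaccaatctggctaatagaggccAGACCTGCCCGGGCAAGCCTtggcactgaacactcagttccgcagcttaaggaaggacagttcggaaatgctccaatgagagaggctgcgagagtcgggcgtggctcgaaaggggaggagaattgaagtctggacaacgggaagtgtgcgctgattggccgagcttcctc
The *Cdkn1a* element ended 31 bases before the upstream start of the gene and 2821 bases before its other start, and the *Ccng1* element ended 175 bases before its start. A match is a description of these letters, and the windows of the other genes were too short to speak of elements elsewhere in them.

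The genes had the same order of levels in both libraries, from *Bax* to *Cdkn2a*. They are given in CPM; since 1 UMI stands for 1 molecule captured at its 3′ end, the levels were not divided by length. *Bax* (ENSMUSG00000003873, chr7:45461697-45466898), which codes for a protein that permeabilizes the mitochondrial outer membrane in apoptosis, was highest at 917 in WT and 978 in the dKO-labelled library. *Trp53* (ENSMUSG00000059552, chr11:69580359-69591873) followed at 525 and 482. *Phlda3* (ENSMUSG00000041801, chr1:135766119-135769136), a PH-domain protein that restrains AKT, was at 117 and 120. *Ccng1* (ENSMUSG00000020326, chr11:40748552-40755311), cyclin G1, was at 86.8 and 80.7. *Mdm2* (ENSMUSG00000020184, chr10:117688875-117710758), the ubiquitin ligase that marks p53 for degradation, was at 72.8 and 59.1. 

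Below these genes came *Zmat3* (ENSMUSG00000027663, chr3:32334792-32366014), an RNA-binding zinc finger protein, at 34.6 and 32.5, and *Cdkn1a* (ENSMUSG00000023067, chr17:29090976-29100727), which codes for p21, at 32.2 and 31.3. The intervals of this pair overlapped in the dKO-labelled library (31.4 to 33.6 and 30.3 to 32.4) but not in WT (33.5 to 35.8 and 31.1 to 33.3), and all other neighbours in the order were apart in both libraries. *Cdkn1b* (ENSMUSG00000003031, chr6:134920401-134925513), which codes for p27, was at 13.2 and 13.0. *Cdkn2a* (ENSMUSG00000044303, chr4:89274471-89294653) was lowest at 7.64 and 5.69. This locus codes for p16INK4a, an inhibitor of CDK4 and CDK6, and through another first exon for ARF, which binds MDM2. Both transcripts share their later exons, where the kit captures them, so these counts cannot tell the products apart.

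3 of the levels have limits in the annotation. A processed pseudogene of *Trp53* lies on chr17 and could take some of its reads. *Bax* overlaps *Gm45808* on the same strand, to which 0 UMIs were assigned in either library, and reads that fit both genes make the *Bax* level uncertain. *Cdkn1a* overlaps the unverified gene AC167363.2 on the opposite strand.

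**Figure D1:**
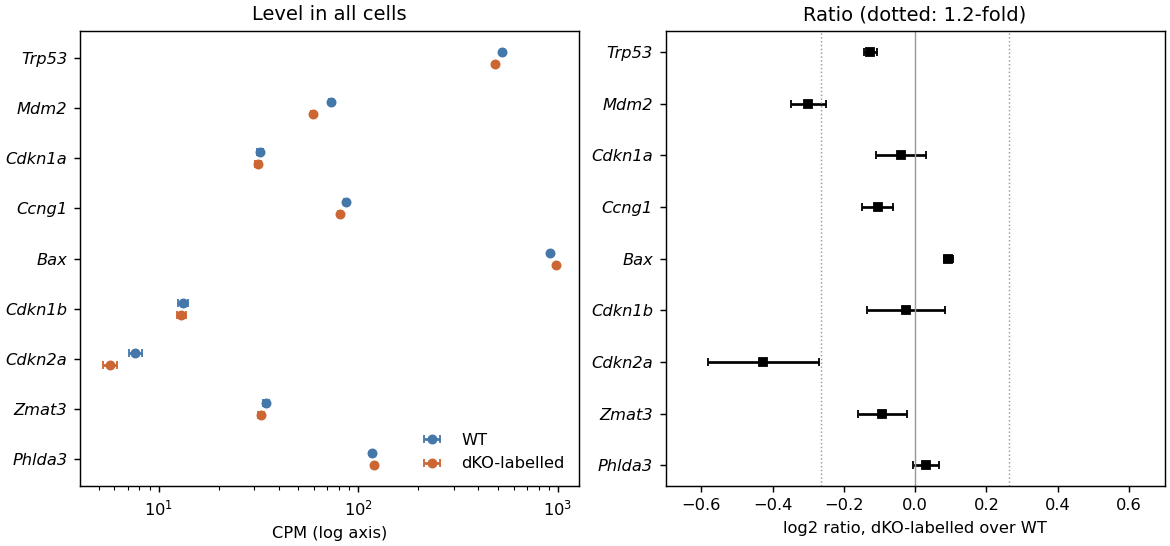
Left, level of each gene in CPM (log axis) in WT (blue) and in the dKO-labelled library (orange); right, log2 ratio of the dKO-labelled library over WT, with dotted lines at 1.2-fold. Bars are exact 95% intervals for counting error only, with 1 library per condition; *Mdm2* (−0.30) and *Cdkn2a* (−0.43) lie beyond the left dotted line and the other 7 genes between the lines.

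*Mdm2* and *Cdkn2a* stood furthest apart between the libraries, and the other 7 genes were within 1.2-fold. 2 of the 9 genes were at least 1.2-fold lower in the dKO-labelled library and 0 were at least 1.2-fold higher, beside 11.4% lower and 9.13% higher, 20.5% in all, among the 13654 genes that had 50 UMIs or more. None of the 9 was 2-fold apart, beside 0.432% of these genes lower and 0.872% higher, 1.3% in all. The log2 ratio of *Mdm2* was −0.30 (−0.35 to −0.25), from 6988 UMIs in WT and 6447 in the dKO-labelled library. It fell short of the 1.2-fold line as a mean over cells (−0.23) and with every cell thinned to 10000 UMIs (−0.22). The log2 ratio of *Cdkn2a* was −0.43 (−0.58 to −0.27), from 733 and 620 UMIs. The 13654 genes reach down to 50 UMIs, where counting error alone widens the ratios. Among genes with a like number of UMIs, the ratio of *Mdm2* lay at the 1.89 percentile and that of *Cdkn2a* at the 2.87 percentile.

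The remaining 7 genes differed less. *Trp53* itself had a log2 ratio of −0.13 (−0.14 to −0.11), with *Ccng1* at −0.10 (−0.15 to −0.06) and *Zmat3* at −0.09 (−0.16 to −0.02). *Bax* was higher, at 0.09 (0.08 to 0.11), which lay at the 74.7 percentile of all 13654 genes. How many of all genes had an interval off 0 was not counted. The intervals of *Cdkn1a* (−0.04, −0.11 to 0.03), *Cdkn1b* (−0.03, −0.14 to 0.08) and *Phlda3* (0.03, −0.005 to 0.07) held 0. For *Cdkn1a* the interval corresponds to a ratio between 0.926 and 1.02. Among genes with a like number of UMIs, *Trp53* lay at the 5.43 percentile of ratios, *Ccng1* at 10.1 and *Zmat3* at 18.4. *Cdkn1a* lay at 34.2, *Cdkn1b* at 46.9, *Phlda3* at 51.9 and *Bax* at 86.6. The median log2 ratio of the 6 p53 targets was −0.07, beside a median of −0.01 and a middle 90% from −0.44 to 0.40 over all 13654 genes.

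The genes differed in how they were spread over cells. To compare libraries of unequal depth, each cell was thinned at random to 10000 UMIs, and the 43 WT cells and 67 dKO-labelled cells below that depth were left out. Then 2192 of 2193 WT cells held a *Bax* UMI, as did 2842 of 2843 dKO-labelled cells. *Trp53* was found in 99.5% and 98.8% of cells. *Phlda3* was found in 61.4% and 59.8% of cells, *Ccng1* in 54.8% and 52.0%, *Mdm2* in 42.5% and 37.4%, *Zmat3* in 28.4% and 27.6%, and *Cdkn1a* in 25.2% and 24.0%. *Cdkn1b* was found in 12.2% and 11.0% and *Cdkn2a* in 7.71% and 5.91%. The intervals of the *Mdm2* shares were 40.4% to 44.6% in WT and 35.6% to 39.2% in the dKO-labelled library. How many of all genes had shares this far apart was not counted. Without thinning, *Mdm2* was found in 77.4% and 72.2% of cells and *Cdkn1a* in 55.7% and 52.9%. The large clusters described below were given no type, so the shares were not set against cell types known to lack these genes. In barcodes with 10 to 100 UMIs, which mostly hold free RNA, the genes were also present (*Mdm2* 64.6 and 59.7 CPM, *Cdkn1a* 22.1 and 21.4), and the part of free RNA in the shares was not tested.

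Set against genes of a like mean, *Mdm2* and *Cdkn1a* were the most unevenly spread of the 9 over cells. The variance of the thinned *Mdm2* UMIs was 1.96 times their mean in WT and 2.05 times in the dKO-labelled library, where random sampling alone gives a ratio near 1. Genes of a like mean had a median ratio of 1.06 in both libraries, and *Mdm2* lay at their 99.3 and 99.6 percentile. For *Cdkn1a* the ratio was 1.78 and 1.52, at the 99.5 and 99.1 percentile. A single WT cell held 13 of the thinned *Cdkn1a* UMIs, while 1641 of 2193 held 0. *Phlda3* (1.53 and 1.75), *Ccng1* (1.38 and 1.31) and *Cdkn2a* (1.236 and 1.122) lay at the 94.2 to 98.1 percentile, and *Zmat3* (1.14 and 1.07) at the 91.0 and 70.5 percentile. *Trp53* (1.202 and 1.176) and *Bax* (1.33 and 1.30) were close to the median of genes of their level, which was 1.17 and 1.16 for *Trp53* and 1.28 and 1.27 for *Bax*. *Cdkn1b* was spread almost as random sampling would spread it (1.04 and 1.01).

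The p53 targets were detected together in the same cells. Over the 15 pairs of the 6 targets, Pearson's r of ln(1 + UMIs) at 10000 UMIs per cell was above 0 in 15 pairs in both libraries, with a median of 0.11 over 2193 WT cells and 0.13 over 2843 dKO-labelled cells. Over the 18553186 pairs of the 6092 genes detected in at least 10% of thinned cells, the median r was 0.001 and the 99th percentile 0.06 in both. These values describe the cells of 1 library each, which share their library and their depth, and are given without a p.

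*Mdm2* and *Phlda3* were the closest pair, with r = 0.29 in WT and 0.30 in the dKO-labelled library. Other close pairs were *Mdm2* and *Ccng1* (0.22 and 0.21), *Ccng1* and *Phlda3* (0.22 and 0.25), *Mdm2* and *Cdkn1a* (0.20 and 0.19) and *Cdkn1a* and *Phlda3* (0.21 and 0.15). Counted in cells, 292 WT cells held both *Mdm2* and *Cdkn1a* where the product of their single shares gives 234.6, and 330 dKO-labelled cells did where it gives 255.4. *Bax* had r from 0.03 to 0.09 to the other targets in WT and from 0.06 to 0.15 in the dKO-labelled library, and *Zmat3* from 0.06 to 0.11 and from 0.06 to 0.13.

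*Trp53* mRNA was only weakly tied to its targets. Its r to the 6 targets lay between −0.01 and 0.05 in WT and between 0.02 and 0.05 in the dKO-labelled library. To the score of the 6 targets, the mean of their standardized ln(1 + UMIs), it had an r of 0.01 in WT and 0.08 in the dKO-labelled library, at the 65.8 and 95.5 percentile of all genes. *Cdkn1b* and *Cdkn2a* were likewise close to 0 with all other members (−0.03 to 0.03 in WT and −0.01 to 0.04 in the dKO-labelled library), and for genes found in so few cells a weak correlation says little.

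**Figure D2:**
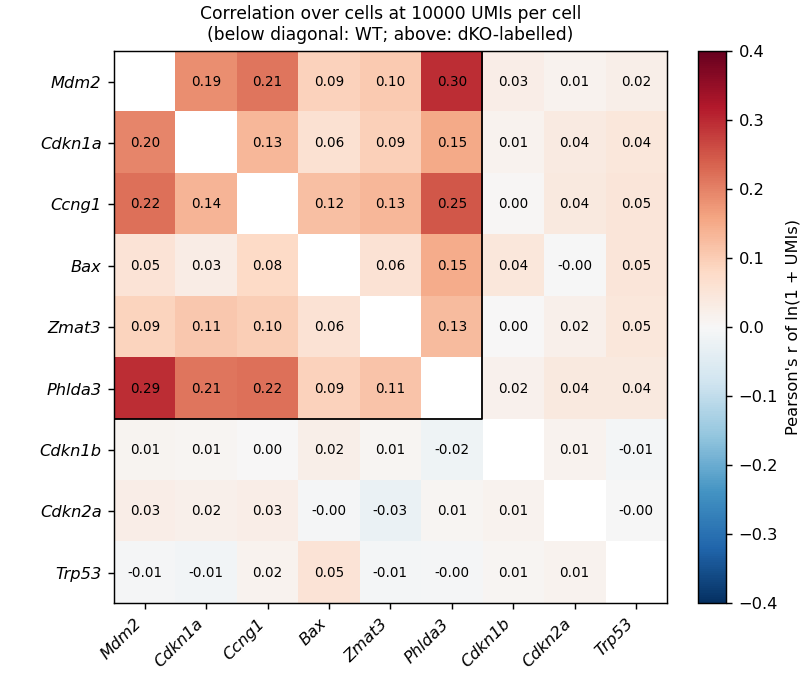
Pearson's r over cells of ln(1 + UMIs) for each pair of the 9 genes with every cell thinned to 10000 UMIs, in WT below the diagonal (2193 cells) and in the dKO-labelled library above it (2843 cells); the black line encloses the 6 p53 targets. The squares within the line are all above 0 and reach 0.29 and 0.30 for *Mdm2* with *Phlda3*, while those of *Trp53*, *Cdkn1b* and *Cdkn2a* outside it do not exceed 0.054.

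The number of targets found per cell was spread more widely than the single shares give. Among 2193 WT cells, 67 held all 6 (3.06%, 2.38% to 3.86%), where the product of the single shares gives 1.02%. Among 2843 dKO-labelled cells, 73 did (2.57%, 2.02% to 3.22%), where it gives 0.771%. At the other end, 1 target alone was found in 11.5% of WT cells and 13.1% of dKO-labelled cells, where the product gives 5.39% and 6.66%. *Bax* was found in 2192 of 2193 WT cells and 2842 of 2843 dKO-labelled cells, so these counts turn on the other targets. The intervals of the observed shares with all 6 overlapped between the libraries. The summed UMIs of the 6 targets had a variance 1.35 times the sum of the single variances in WT and 1.42 times in the dKO-labelled library.

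**Figure D3:**
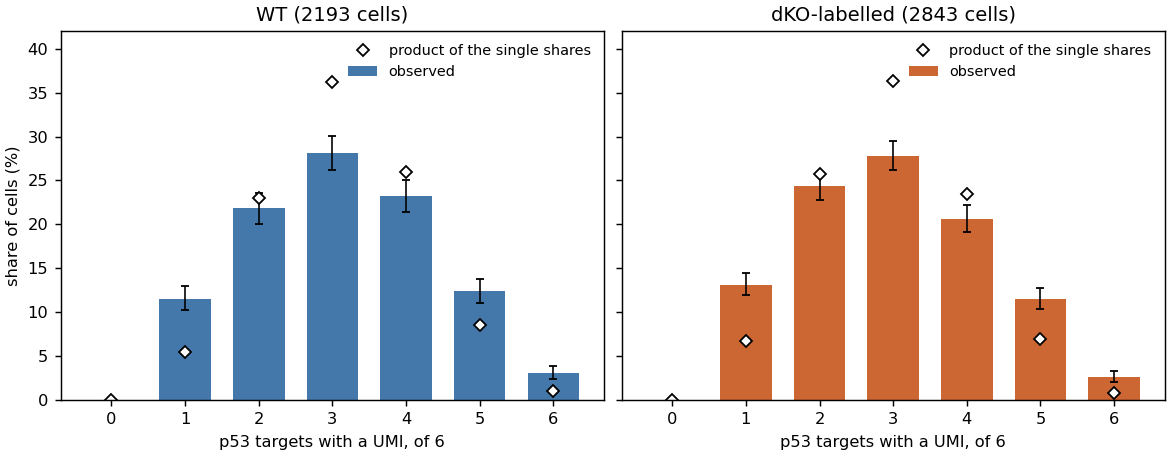
Share of cells (%) by the number of the 6 p53 targets with at least 1 UMI at 10000 UMIs per cell, in WT (left, 2193 cells) and in the dKO-labelled library (right, 2843 cells); bars are observed with exact 95% binomial intervals for counting error, and open diamonds give the share if each target were found independently at its own share. The bars lie above the diamonds at 1, 5 and 6 targets and below them at 3 in both libraries.

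The targets were also correlated within single phases and within single large clusters. What phase and cluster add to the r over all cells was not tested. Within cells called G1, S or G2/M, the median r of the 15 pairs was between 0.09 and 0.11 in WT and between 0.12 and 0.14 in the dKO-labelled library. Within each of the 4 large clusters it was between 0.08 and 0.15 in WT and between 0.12 and 0.14 in the dKO-labelled library; this alternative was added after the data were seen. At 5000 UMIs per cell, where fewer UMIs enter each value, it was 0.08 and 0.06.

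Cells with more *Cdkn1a* also held more *Mdm2*, *Phlda3* and *Ccng1*. From 1641 WT cells with 0 thinned *Cdkn1a* UMIs to 38 cells with 3 or more, *Mdm2* went from 62.0 to 242.1 CPM, and from 2160 to 51 dKO-labelled cells it went from 53.8 to 172.5. *Phlda3* was 2.55 times as high at the upper end in WT and 1.79 times in the dKO-labelled library, and *Ccng1* went from 83.9 to 207.9 and from 75.9 to 170.6. Before thinning, the cells with 3 or more *Cdkn1a* UMIs were shallower than those with 0, with medians of 32504 against 39927 UMIs in WT and 29120 against 35519 in the dKO-labelled library; the part of this in the levels was not tested. Among 6091 genes compared in this way, the fold of *Mdm2* lay at the 99.7 percentile in WT and 99.9 in the dKO-labelled library. *Phlda3* lay at 98.8 and 97.0, *Ccng1* at 98.6 and 99.2, and *Zmat3* at 91.0 and 94.3. The counting intervals of *Mdm2*, *Phlda3* and *Ccng1* overlapped between the libraries in the highest group. Those of *Mdm2* were from 195.2 to 296.9 in WT and from 138.4 to 212.6 in the dKO-labelled library. *Zmat3* was 1.58 times and 1.59 times as high in the highest group as at 0, with a log2 interval that held 0 in WT (−0.08 to 1.32). *Bax* (1.05 and 1.01 times) and *Trp53* (0.932 and 1.10 times) had log2 intervals that held 0. *Cdkn2a* was at 34.2 against 9.14 CPM in WT, from 13 and 150 UMIs, and at 7.84 against 6.06 in the dKO-labelled library, from 4 and 131 UMIs.

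**Figure D4:**
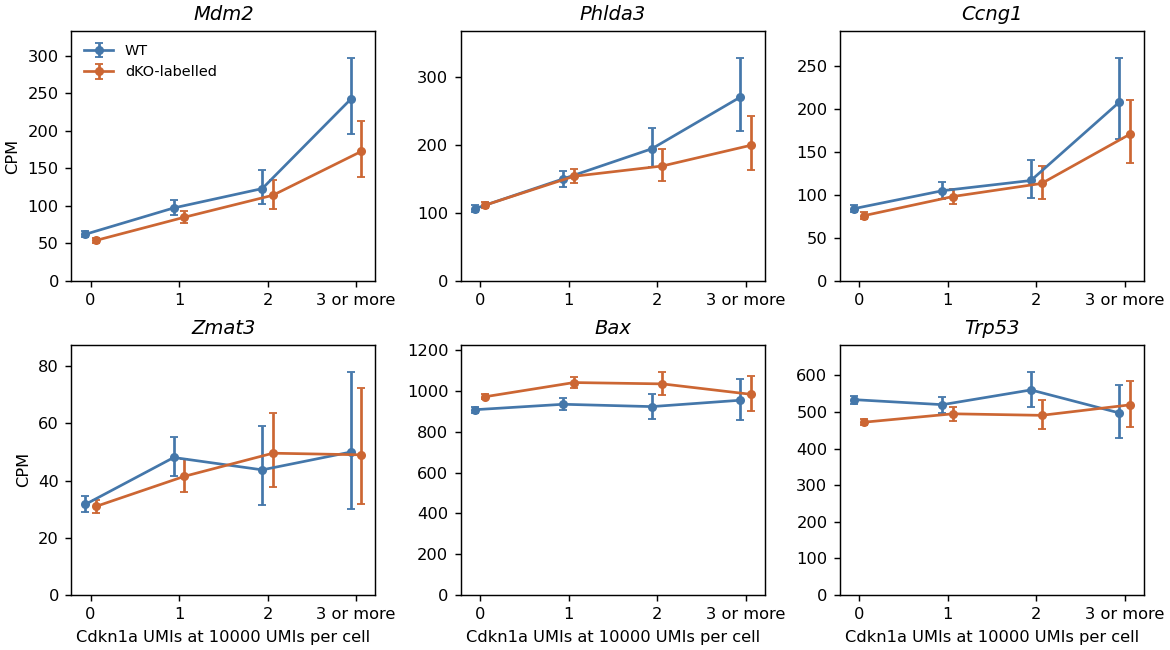
Level (CPM) of 6 genes in cells grouped by their *Cdkn1a* UMIs at 10000 UMIs per cell, in WT (blue) and in the dKO-labelled library (orange); points are summed UMIs over the cells of a group with exact 95% Poisson intervals for counting error. *Mdm2*, *Phlda3* and *Ccng1* are higher at each step from 0 to 3 or more *Cdkn1a* UMIs, while *Bax* (1.05 and 1.01 times) and *Trp53* (0.932 and 1.10 times) differ little between the end groups.

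The genes whose pattern over cells was most like that of a target included other known p53 targets. By the lower of their r in the 2 libraries, *Mdm2* was followed most closely by *Phlda3*, *Btg2* (0.29 and 0.29), an antiproliferative gene, and *Ddit4l* (0.27 and 0.28), an inhibitor of mTOR signalling. *Cdkn1a* was followed by *Mdm2*, *Btg2* (0.16 and 0.17) and *Plk2* (0.18 and 0.15), a polo-like kinase. *Ccng1* was followed by *Phlda3*, *1700007K13Rik* (0.22 and 0.24) and *Plk2* (0.23 and 0.21), and *Phlda3* by *Mdm2*, *Plk2* and *Ddit4l*.

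*Zmat3* was followed by *Perp*, a cell adhesion protein with a part in p53-dependent apoptosis, then by *Phlda3* and *Wdr35*. *Bax* was followed by *Ptp4a3* (0.16 and 0.15), a phosphatase, *Dhx16* (0.14 and 0.18), an RNA helicase of splicing, and *Psrc1* (0.13 and 0.14), a microtubule-binding protein. These were also close to other targets, *Ptp4a3* to *Ccng1* (0.19 and 0.23), *Dhx16* to *Phlda3* (0.21 and 0.25) and *Psrc1* to *Zmat3* (0.10 and 0.13). *Trp53* was closest to *Utf1* (0.13 and 0.11), a chromatin factor of pluripotent cells, *Tdh* (0.10 and 0.11), threonine dehydrogenase, and *Ppia* (0.09 and 0.12), a cyclophilin. *Cdkn1b* was closest to *Atrx* (0.08 and 0.08), *Malat1* (0.07 and 0.13) and *Smarca5* (0.07 and 0.07), 2 chromatin remodellers and a nuclear RNA. *Cdkn2a* was found in too few cells for such a ranking.

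A wider list held 34 other p53 targets, of which 33 had at least 50 UMIs and 20 were detected in at least 10% of thinned cells. Of these 20 genes, 14 (70.0%) had an r to the score of the 6 targets above the 95th percentile of all genes in both libraries, as did 3.47% of all 6086 genes outside the 6, and 9 were above the 99th. Among the highest were *Plk2* (0.36 in WT and 0.34 in the dKO-labelled library), *Perp* (0.35 and 0.30) and *Btg2* (0.32 and 0.38). Not all followed the score. *Tigar* (−0.03 and −0.04), which lowers glycolysis, *Xpc* (0.002 and 0.01) and *Plk3* (0.004 and 0.04) were near 0; *Tigar* and *Xpc* were picked for this after their values were seen. In the cells with 3 or more *Cdkn1a* UMIs, *Perp* was 6.55 times and *Plk2* 5.81 times as high as in cells with 0 in WT, and 4.01 and 5.34 times in the dKO-labelled library. Both folds lay at or above the 99.9 percentile of the 6091 genes compared in each library. Other genes of the list were lower in these cells or differed less. *Tigar* was 0.667 and 0.615 times as high, *Aen* 1.05 and 1.29 times and *Ppm1d* 1.18 and 1.13 times, all picked after their values were seen.

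Between the libraries, the wider list had a median log2 ratio of −0.08 over its 33 genes with at least 50 UMIs, and 2 were at least 1.2-fold higher and 8 at least 1.2-fold lower, beside 9.13% higher and 11.4% lower over all genes. *Fas*, a death receptor gene, was the single one past 2-fold, with a log2 ratio of −1.01 (−1.61 to −0.43) from 71 UMIs in WT and 40 in the dKO-labelled library, and was named after its value was seen. The lowest that the rule for named genes gave were *Sesn2* (−0.37, from 21.9 to 17.0 CPM), a stress-induced inhibitor of mTORC1, *Perp* (−0.36, from 41.6 to 32.4) and *Rrm2b* (−0.36, from 5.44 to 4.24), a subunit of ribonucleotide reductase. The highest were *Pmaip1* (0.48, from 3.15 to 4.40), which codes for the apoptosis protein NOXA, *Plk3* (0.20) and *Ddb2* (0.19), a DNA damage sensor whose interval held 0 (−0.003 to 0.39).

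Of the 17 genes listed as regulators of p53, 0 were at least 1.2-fold apart, beside 20.5% of all genes. Their log2 ratios ranged from −0.12 for *Mdm4*, the partner of MDM2, to 0.15 for *Sirt1*, a deacetylase, with a median of 0.03. *Mdm4* had an r to the score of the 6 targets of 0.06 in WT and 0.09 in the dKO-labelled library. *Npm1*, a nucleolar protein that binds ARF and MDM2, had the lowest r to the score of all 6086 genes, −0.28 and −0.29, and is named for that value.

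The cells formed 7 clusters in a joint clustering from which the 9 genes had been left out. 4 large ones held nearly all cells. Their leading genes were *Hist1h2ap*, *Nptx2* and *Prph* in cluster 0, *Sp5*, *Tagln* and *Fgfbp1* in cluster 1, *Gna15*, *Fam110a* and *Ube2c* in cluster 2, and *mt-Nd6* and histone genes in cluster 3, none of which gave a name. Cluster 1 held 424 WT cells (18.96%) and 848 dKO-labelled cells (29.1%). Of the 4 large clusters it had the highest levels of the p53 targets with both libraries pooled. *Cdkn1a* was at 42.5 CPM, 1.48 times its level in all other cells, *Mdm2* at 82.5 (1.36 times), *Phlda3* at 147.5 (1.33 times), *Ccng1* at 102.5 (1.31 times), *Zmat3* at 40.2 (1.27 times) and *Bax* at 978 (1.04 times). *Cdkn2a* was at 9.67 (1.68 times), also its highest of the 4. In the dKO-labelled library alone, *Bax* was higher in cluster 2 (1003.65 CPM) than in cluster 1 (995 CPM). Of the cells with 3 or more *Cdkn1a* UMIs, 52.6% in WT and 54.9% in the dKO-labelled library were in cluster 1, against 17.5% and 28.4% of cells with 0. Clusters and members come from the same cells, so these levels are descriptions.

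*Trp53* and *Bax* varied little over the 4 clusters, by 1.10-fold and 1.06-fold between the lowest and the highest. *Cdkn1b* was ordered differently from the targets. It was lowest in cluster 0 (8.88 CPM) and highest in cluster 3 (16.8). By cell cycle phase it was at 15.4 in cells called G2/M and at 10.2 in G1 and 10.7 in S, and with another scoring of the phases, under which 47.3% in place of 28.5% of WT cells were called G1, it was at 16.4, 10.9 and 10.8. 

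The small ER-like cluster had 57 WT cells and 24 dKO-labelled cells and was named by its markers of endoplasmic reticulum stress (12 of 12 raised, among them *Derl3*). In it *Cdkn2a* was at 19.9 CPM, 3.11 times its level in all other cells (22.1 in WT, from 48 UMIs, and 14.3 in the dKO-labelled library, from 12 UMIs), and *Cdkn1b* at 19.6 (1.505 times). *Mdm2* was at 38.2 (0.579 times), *Phlda3* at 68.7 (0.575 times) and *Trp53* at 426 (0.846 times). In the 22 cells of the 2C-like cluster, with 10 of 17 listed markers raised but none among its top 10 genes, *Cdkn2a* rested on 14 UMIs (17.9 CPM, 9.80 to 30.1).

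**Figure D5:**
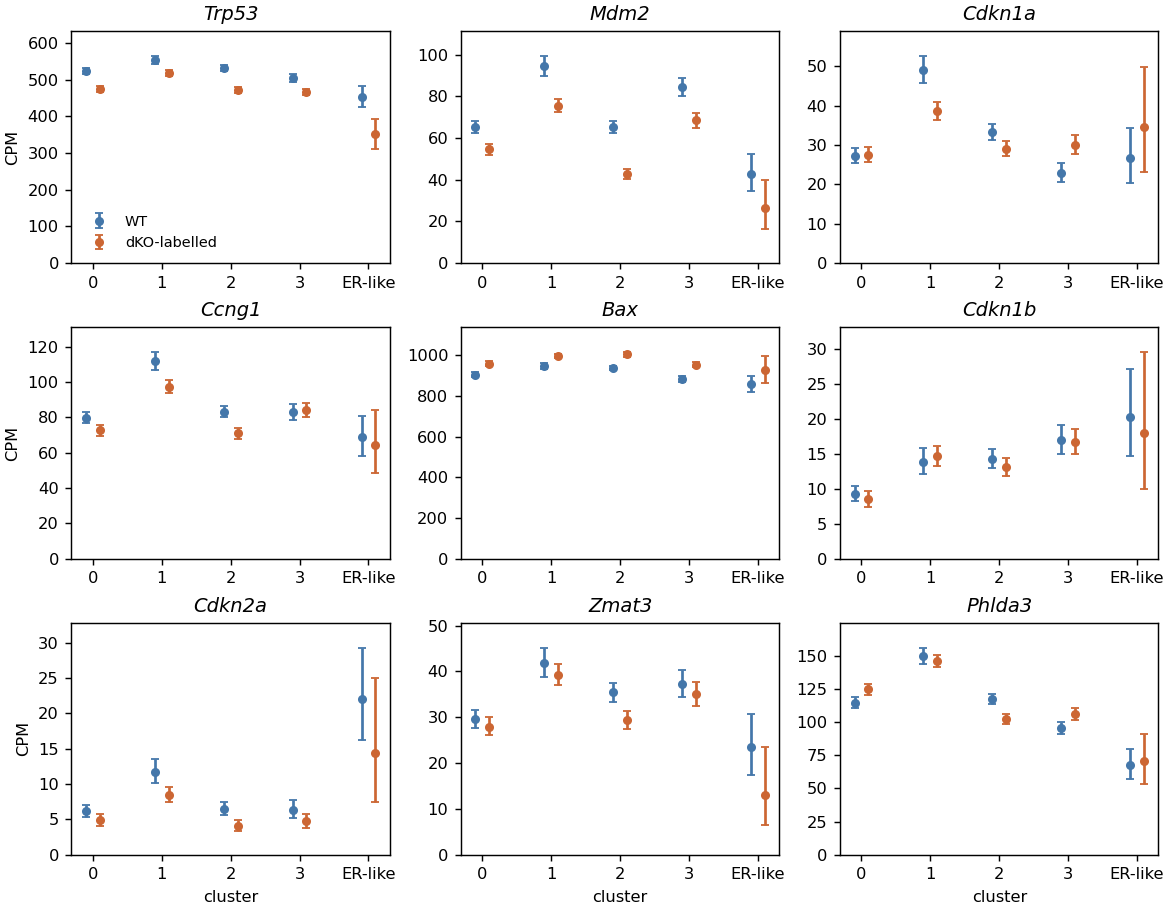
Level (CPM) of each of the 9 genes in the 4 large clusters and the ER-like cluster, in WT (blue) and in the dKO-labelled library (orange), with exact 95% Poisson intervals for counting error and axes that start at 0. *Mdm2*, *Cdkn1a*, *Ccng1*, *Zmat3* and *Phlda3* peak in cluster 1, *Cdkn2a* in the ER-like cluster; *Trp53* and *Bax* differ by 1.10-fold and 1.06-fold over the 4 large clusters, with *Trp53* lower in the ER-like cluster.

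Within clusters, the ratio between the libraries kept its sign for most members and not for others. *Mdm2* was lower in the dKO-labelled library in all 4 large clusters, with log2 ratios from −0.61 in cluster 2 to −0.26 in cluster 0, and *Cdkn2a* from −0.67 to −0.33. With the 4 clusters weighted alike in both libraries, an alternative added after the data were seen, the log2 ratio of *Mdm2* was −0.37. *Trp53* was lower by −0.17 to −0.10 and *Bax* higher by 0.07 to 0.11 in each of the 4. *Zmat3* was lower in each, with log2 ratios from −0.27 to −0.08. *Cdkn1a* differed in sign: it was at 22.8 CPM in WT and 30.04 in the dKO-labelled library in cluster 3, and at 49.1 and 38.6 in cluster 1. *Ccng1* (−0.23 to 0.02), *Cdkn1b* (−0.13 to 0.08) and *Phlda3* (−0.20 to 0.15) also had log2 ratios of both signs. The interval of the positive *Ccng1* ratio held 0, as did those of all *Cdkn1b* ratios.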

How the data were processed

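Both droplet libraries, WT and dKO-labelled, were sequenced by the study, and per the labels the authors aligned reads to mm10 and counted UMIs with Cell Ranger 3.0.2. The deposited matrices hold these raw UMI counts for all barcodes of the kit. The gene annotation was GENCODE M21, and the promoter sequences were those of RefSeq for GRCm38.p6.

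Everything else was computed from the counts. Cells were kept at 1000 or more detected genes and 5% or less mitochondrial UMIs, which left 95965242 WT UMIs and 109020533 UMIs of the other library. UMIs were summed over cells and divided by the library total. Ratios carry exact conditional binomial intervals, shares exact binomial (Clopper-Pearson) intervals and levels exact Poisson intervals, all at 95%. With 1 library per condition no test was possible, so genes were counted by fixed folds of 1.2 and 2 among those with at least 50 UMIs.

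For values per cell, each cell was thinned without replacement to 10000 UMIs. Clusters were made in Seurat 5.3.0 on R 4.3.3 after log-normalization with 2000 variable genes, anchor integration, 30 components and a resolution of 0.5, with the 9 genes left out. A cluster was named where at least 3 markers, and most of those listed, were raised by 1.5-fold or more and found in 10% of its cells or more. A ribo-like cluster of shallow cells (37 and 55) is in all totals but not described by itself. Phases were scored with Seurat on the thinned cells, since tricycle was not installed. Doublets were not called. The deepest cells (135 WT and 140 others, past 2 medians of UMIs) were left out in an alternative. The p53 element was searched by a script over all RefSeq windows. The ratio and correlation procedures were tested on simulated data. Further versions were Python 3.11.15, numpy 2.4.6, scipy 1.17.1, pandas 2.3.3, matplotlib 3.10.9 and edgeR 4.0.16, the last for TMM scaling alone.

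The genes, the wider lists and the markers were chosen with earlier results of these data known. The genes named are the 9 members, the 3 highest and 3 lowest ratios of each wider list among genes with at least 200 UMIs, the 3 genes most like each member found in at least 10% of cells, *Smad1*, *Smad5* and the markers of named clusters. Others are marked as picked after their values were seen or, for *Btg2*, *Perp* and *Plk2*, follow from these ranks; the leading genes of clusters 0 to 3 are given only to describe them. The alternatives were other cell filters, scalings, depths and cell subsets.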

Additional observations from a re-analysis of the deposited data

Results flagged for a closer look

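The log2 ratio of *Cdkn1a*, the dKO-labelled library over WT, had opposite signs in different clusters of cells, with counting intervals on opposite sides of 0. It was 0.40 in cluster 3 (370 UMIs in WT and 615 in the other library), −0.35 in cluster 1 (802 and 1090 UMIs) and −0.20 in cluster 2. In cluster 0 it was 0.01. By cell cycle phase it was 0.26 in S and −0.24 in G1, but 0.14 in S with an interval from −0.04 to 0.31 under the other scoring of phases.

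*Phlda3* showed the same kind of contrast, with log2 ratios of 0.12 in cluster 0 and 0.15 in cluster 3 but −0.20 in cluster 2, and −0.04 with an interval that held 0 in cluster 1. None of these differences between clusters was tested, since each cluster has 1 library per condition and its cells are not replicates. The intervals cover counting error only, and 36 ratios (9 genes in 4 clusters) were looked over.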

How the results depend on the processing

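No paired analysis was possible because each condition has 1 library and the comparison comes from no test. There is no replicate to leave out. Of 99 ratios of members under alternatives, 88 stayed within the counting interval of the value as reported, and no value whose interval lay off 0 changed sign. With every cell thinned to 10000 UMIs, the log2 ratio was −0.15 for *Trp53*, −0.22 for *Mdm2*, 0.11 for *Bax* and −0.18 for *Cdkn1b*. At 5000 UMIs it was −0.073 for *Trp53*, −0.025 for *Ccng1*, −0.16 for *Cdkn1b*, −0.85 for *Cdkn2a* and −0.22 for *Zmat3*. Thinning leaves fewer UMIs by its construction. As a mean over cells *Mdm2* was −0.23, and weighted over clusters, an alternative added after the data were seen, it was −0.37. The number of members at least 1.2-fold lower was 1 in place of 2 as a mean over cells and at 10000 UMIs. TMM scaling, median scaling, other filters on cells, the main population alone, the removal of cells with high UMIs and thinning to 5000 UMIs left the count at 2. The list of p27 turnover and pocket proteins had a median log2 ratio of −0.019 at 10000 UMIs, against 0.024 as reported. That of the other CDK inhibitors was 0.028 at 10000 UMIs, against −0.21 as reported.

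The median r of the 15 target pairs was 0.063 at 5000 UMIs in the dKO-labelled library, against 0.13 at 10000, and 0.08 in WT. It was between 0.08 and 0.15 under every other alternative, Spearman's correlation included. Of 36 shares of cells with a UMI recomputed at another depth, 33 left their interval: *Mdm2* was found in 26.5% and 23.4% of cells at 5000 UMIs, and *Cdkn2a* in 4.98% and 2.75%. For *Cdkn2a* the depth limits any value per cell.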

Other observations

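Of the 4 other CDK inhibitor genes, 2 were at least 1.2-fold lower in the dKO-labelled library, beside 11.4% of all genes. The median log2 ratio of the 4 was −0.21, but 0.03 with every cell thinned to 10000 UMIs and −0.11 in the main population alone. *Cdkn1c*, which codes for p57 and is imprinted, was at 55.7 against 76.0 CPM in WT (a log2 ratio of −0.45). *Cdkn2b*, the other, had a log2 ratio of −0.33 with an interval that held 0 (−0.78 to 0.11), as did that of *Cdkn2d* (0.07, −0.01 to 0.16). *Cdkn2b* and *Cdkn2c* were under 1 CPM in both libraries. Like the targets, *Cdkn1c* had an r to the p53 target score above the 95th percentile in both libraries (0.09 and 0.09).

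Of the 13 cyclin and CDK genes, 1 was at least 1.2-fold apart, beside 20.5% of all genes. This was *Ccnd2*, cyclin D2, with a log2 ratio of −0.48 from 8.58 to 6.16 CPM. The highest ratios were those of the cyclin genes *Ccne2* (0.21), *Ccnd3* (0.17) and *Ccne1* (0.12). *Ccnd3* and *Ccne1* had an r to the p53 target score below the 5th percentile in both libraries, −0.12 and −0.12 for *Ccnd3* and −0.14 and −0.12 for *Ccne1*. Among 11 genes of p27 turnover and the pocket proteins, *Rbl2*, which codes for p130, was the single gene at least 1.2-fold apart (−0.50, from 347 and 278 UMIs), beside the same 20.5%. *Rb1* (−0.10) and *Rbl1* (−0.05) had intervals that held 0, and *Skp1a* (0.11), *E2f4* (0.09) and *Cul1* (0.07) were the highest.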
